A study of Mus musculus with 11 samples.

Results

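The CGRP and adrenomedullin family was followed through 9 genes of the count table, out of 24411 gene symbols. They were chosen by symbol: the peptide genes Calca, Calcb, Adm and Adm2, the receptor genes Calcr and Calcrl, and the receptor partners Ramp1, Ramp2 and Ramp3. The choice was made with earlier results of these data known, so that the PNX and sham values of Calca, from which the family was evidently picked, are given as a description. The RNA came from lung cells of C57BL6 mice, sorted by flow cytometry as lacking EpCAM, CD45 and CD31, the surface proteins of epithelial, blood and endothelial cells. Mice had pneumonectomy (PNX, the removal of one lung, after which the remaining lung grows) with 3 libraries at day 7 and 3 at day 14, or sham surgery with 3 libraries at day 7 and 2 at day 14. No transgene or drug is named in the labels, age and sex are not given in the sources used here, and nothing there says whether a library is 1 mouse or several. P-values therefore measure the spread between libraries.

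CGRP, the calcitonin gene-related peptide, and adrenomedullin are short secreted peptides that widen blood vessels, and in the lung CGRP is best known from sensory nerve endings and neuroendocrine cells of the airway. They act through the receptor encoded by Calcrl, which reaches the cell surface only with a RAMP protein beside it. Calcrl with Ramp1 is a receptor for CGRP, and Calcrl with Ramp2 or Ramp3 is a receptor for adrenomedullin. These receptors couple mainly to the G protein that raises cyclic AMP.

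Calca makes either calcitonin or CGRP from the same gene by alternative splicing, and Calcb makes a second, nearly identical CGRP. Both lie on mouse chromosome 7 (mm10), Calca at chr7:114631478-114636357 on the minus strand and Calcb at chr7:114718643-114723365 on the plus strand, 82285 bases apart. The coding stretch that both genes share is shown because reads from it could be assigned to either gene. It is 170 bases long, lies in exons 3 and 4 of transcripts Calca-201 and Calcb-201, at chr7:114632458-114634495 and chr7:114720187-114722116 with an intron between the exons, and is written 5′ to 3′ on the strand of each gene. Capitals mark the 11 bases at which the genes differ.
Calca: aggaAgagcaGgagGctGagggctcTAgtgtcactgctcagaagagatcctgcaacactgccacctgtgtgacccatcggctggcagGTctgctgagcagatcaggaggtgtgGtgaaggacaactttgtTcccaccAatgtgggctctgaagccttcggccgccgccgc
Calcb: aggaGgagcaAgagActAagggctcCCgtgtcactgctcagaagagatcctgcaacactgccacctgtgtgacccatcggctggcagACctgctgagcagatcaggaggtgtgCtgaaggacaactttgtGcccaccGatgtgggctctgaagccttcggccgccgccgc
The stretches were 93.5% identical, with a longest shared run of 60 bases. Over whole transcripts the overlap was small: 11 of the 945 sequences of 50 bases in Calca-201, or 1.16%, also occurred in Calcb-201, where they were 1.20% of 913. The calcitonin-type transcript Calca-202 shared 0 of its 781 such sequences with Calcb-201. How the authors' counting treated reads that match both genes is not given in the sources used here.

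Promoter sequence was matched in RefSeq (GRCm38.p6, the same coordinates as mm10) for 7 of the 9 genes. That of Calca, chr7:114636308-114636607 on the minus strand, runs from 250 bases before to 50 after the start of transcription. It is shown because Calca had the largest difference between surgeries in the family, and because cyclic AMP response elements are a textbook feature of CGRP gene regulation. Capitals mark TGACG, the short core of that element.
Calca promoter: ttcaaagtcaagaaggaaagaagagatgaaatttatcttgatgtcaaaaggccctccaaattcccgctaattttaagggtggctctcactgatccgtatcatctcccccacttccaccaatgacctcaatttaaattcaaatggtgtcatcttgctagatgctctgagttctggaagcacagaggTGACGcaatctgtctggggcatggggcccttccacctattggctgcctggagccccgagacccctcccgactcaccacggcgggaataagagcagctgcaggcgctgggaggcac
The single TGACG began 65 bases before the start site, on the strand shown. This motif, searched on both strands, occurred in 20.9% of 32544 promoters of the same length. The whole element TGACGTCA, which holds the core, was in 1.80% of promoters and not in that of Calca. The hypoxia element core ACGTG was in 19.7% of promoters and in neither that of Calca nor that of Adm. A match describes these letters only.

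Each library held 2539628 to 9008592 counts. Levels below are CPM, a gene's count as a share of the library scaled by TMM factors. Levels of different family genes are set against each other as CPM per kilobase of the longest coding transcript, except in plots of CPM. Marker sums and the ratio of Calcrl to Pecam1 are in CPM, with no correction for length. A background level came from the 1462 genes of smell and pheromone receptors, which lung mesenchyme is not known to use: they averaged 0.524 to 2.84 counts per gene in a library. Of the family, 8 genes passed the filter on low counts and Adm2 did not. Since passing can follow from being high in 1 group, counts over those 8 genes do not stand for the family. Counts from 4 Y-linked genes were 0 in PNX replicates 2 and 3 of day 14, sham replicate 3 of day 7 and sham replicate 1 of day 14. Sex was therefore not matched between groups, and its part in the results was not tested.

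The sorted cells carried fibroblast RNA, with all 13 fibroblast markers counted in every library. Col1a1, a collagen chain, ranged from 1347 to 2583 CPM in PNX and from 421 to 5695 CPM in sham libraries. Of the 13, 12 overlapped between PNX and sham libraries. The exception was Tcf21, which was lower in PNX, at 8.09 to 15.7 CPM against 16.7 to 33.7 CPM in sham libraries. The share of all genes lower without overlap over all libraries is not given here, so nothing is read from this for Tcf21. Pecam1, which encodes CD31, was at 11.1 to 247 CPM in PNX and 11.7 to 85.7 CPM in sham libraries. Epcam was at 1.80 to 6.52 CPM in PNX and 0.580 to 13.4 CPM in sham libraries. Ptprc, which encodes CD45, was at 5.26 to 16.4 CPM in PNX and 8.15 to 51.1 CPM in sham libraries. RNA of gated-out cell types was counted in every library, and that of the alveolar epithelium was high in some. Sftpc, a surfactant protein gene, was at 343 to 15520 CPM in PNX and 23.5 to 11270 CPM in sham libraries. The 13 epithelial markers summed to 965 to 17990 CPM in PNX and 215 to 13620 CPM in sham libraries, beside 21360 to 34860 CPM in PNX and 17090 to 41910 CPM in sham libraries for the 13 fibroblast markers.

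Calca RNA was close to the background in sham cells and above its 95th percentile in every PNX library. In PNX replicate 1 of day 7 that percentile was 7 counts and the highest background gene had 75, against 13 counts of Calca. At day 7 the counts of replicates 1, 2 and 3 were 13, 38 and 253 after PNX, against 1, 1 and 1 after sham. At day 14 they were 66, 501 and 282 after PNX, against 3 and 2 after sham. All PNX libraries lay above all sham libraries. At day 7, 9.95% of all tested genes were higher in every PNX library, and nothing is read from this for Calca. Calca exceeded the 95th percentile of the background genes in 6 of 6 PNX and 0 of 5 sham libraries.

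In CPM, Calca averaged 15.1 ± 15.7 after PNX and 0.167 ± 0.0416 after sham at day 7 (SD, n = 3 each). Day 14 averages were 51.4 ± 34.7 after PNX (SD, n = 3) and 0.626 ± 0.540 after sham (SD, n = 2). The PNX libraries of 1 day differed among themselves by a wide margin, between 2.21 and 32.5 CPM at day 7 and between 12.3 and 78.6 CPM at day 14. With 1 to 3 counts in a sham library, the size of the difference is set by very few reads. The summed counts, scaled to library size, gave a ratio of 109.5 at day 7 (304 PNX against 3 sham counts, exact 95% interval 37.1 to 534). At day 14 the ratio was 117 (849 PNX against 5 sham counts, interval 50.1 to 362). These intervals cover counting error only.

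In the fit over all 16011 tested genes, the log2 fold change of Calca at day 7 was 6.38 ± 1.29 (SE, edgeR adjusted p = 0.0853), and at day 14 it was 6.66 ± 1.41 (adjusted p = 0.178). Neither day alone passed the threshold of 0.05. In the mean of both days it was 6.52 ± 0.97 (adjusted p = 0.0277), which is past the threshold, with Calca 23rd of all genes by p and 4th by the size of the increase. Of the 8 tested family genes 0 passed at day 7, where 0.0375% of all genes did, and 0 at day 14, where 0.00625% did. At an unadjusted p under 0.05 there was 1 at day 7 (12.7% of all genes) and there were 2 at day 14 (6.81%), and DESeq2 called 1 of the family at day 7, of 434 genes it called in all, and 2 at day 14, of 108. In the mean of both days 1 passed, Calca, where 0.137% of all genes passed upward. Since the family was probably picked from PNX and sham values, nothing is read from that count. The mean-of-both-days call is not firm: it was lost when any 1 of 6 libraries was left out, which were PNX replicate 2 and sham replicates 2 and 3 of day 7, and PNX replicate 3 and sham replicates 1 and 2 of day 14 (adjusted p 0.0609 to 0.187 among those), and also without the filter on low counts (adjusted p = 0.0641).

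Without the 3 libraries of highest background (PNX replicate 2 of day 7, sham replicate 2 of day 7 and sham replicate 1 of day 14), the log2 fold change in the mean of both days was 7.20 and the adjusted p was 0.222. With limma voom it was 5.11, with an adjusted p of 0.568. The difference in the effect of surgery between the days was 0.28 on the log2 scale (edgeR adjusted p = 0.987), a value that was negative with total counts, the background covariate and DESeq2, and when PNX replicate 1 of day 7, PNX replicate 2 of day 14 or sham replicate 2 of day 14 was left out. No family gene passed that test, adjusted or at an unadjusted p under 0.05, where 0% and 8.76% of all genes did, and DESeq2 and voom also called 0 of them.

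**Figure D1:**
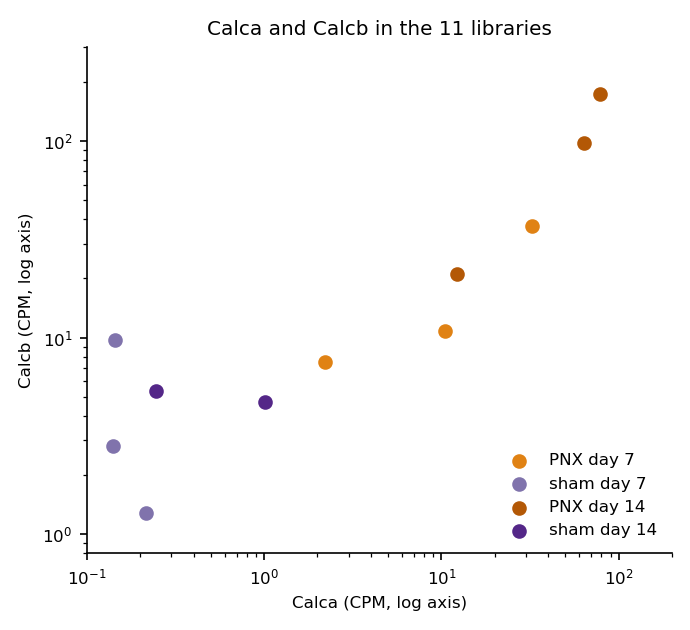
CPM of Calca (horizontal) against CPM of Calcb (vertical), both on log axes, with 1 point per library coloured by surgery and day. The 6 PNX points lie at 2.21 CPM of Calca or more and the 5 sham points at 1.01 CPM or less, while on the Calcb axis the highest sham library, at 9.72 CPM, lies above the lowest PNX library, at 7.48 CPM.

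Calcb, the second CGRP gene, was counted in every library. At day 7 it stood at 7.48, 10.8 and 36.8 CPM after PNX, against 2.81, 1.29 and 9.72 CPM after sham. The day 14 values were 21.1, 173 and 97.1 CPM after PNX, against 4.70 and 5.37 CPM after sham. The groups overlapped at day 7 and did not at day 14, where 9.57% of all tested genes were likewise higher without overlap.

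Calcb had a log2 fold change of 1.98 ± 0.94 at day 7 (edgeR adjusted p = 0.431). Its day 14 value was 4.25 ± 1.20 (adjusted p = 0.473), and its mean over the days was 3.11 ± 0.76 (adjusted p = 0.160). None passed the threshold. With DESeq2 the day 14 and mean values did pass (adjusted p 0.0191 and 0.00336), and day 14 also passed when only its own 5 libraries were fitted (adjusted p = 0.0293). The summed counts gave a ratio of 4.29 at day 7 (interval 3.41 to 5.44) and of 19.6 at day 14 (interval 15.1 to 25.9), counting error only. The test of a different surgery effect between days gave 2.28 ± 1.42 (adjusted p = 0.642).

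Within a library the CGRP genes kept different proportions. Per length, Calcb stood at 1.06 to 3.497 times Calca in PNX libraries and at 4.82 to 69.2 times in sham libraries, where Calca was 1 to 3 counts. Across the 11 libraries the log2 CPM of Calca and Calcb had a Pearson r of 0.91, which includes the difference between the groups. Whether reads of the shared stretch enter it was not tested.

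After PNX, day 14 stood against day 7 at a log2 change of 1.75 ± 0.83 for Calca (edgeR adjusted p = 0.748) and 2.38 ± 0.91 for Calcb (adjusted p = 0.724). The ranges of the days overlapped for both genes. Y-linked counts were 0 in PNX replicates 2 and 3 of day 14, the libraries with the highest Calca and Calcb. In the other PNX libraries they were 1026 or more. Sex was thus not matched between these days, and its part in this comparison was not tested. Of the 8 tested family genes 0 passed this comparison (0% of all genes did), 2 had an unadjusted p under 0.05 (6.85% of all genes did), and DESeq2 called 0. Between these PNX days voom called 2, Calca at 3.17 (adjusted p = 0.0486) and Calcb at 2.65 (adjusted p = 0.0413), of 111 genes it called in all. Between the sham days 0 passed, where 0.0187% of all genes did, 0 had an unadjusted p under 0.05, where 14.3% did, and DESeq2 and voom called 0.

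Adm, which encodes adrenomedullin, lies at chr7:110627661-110629820, with an antisense gene across it whose reads cannot be told apart unless strand was used. Per length it had the highest mean of the 9 genes over the 11 libraries, at 78.2 CPM per kilobase. It was first in 3 of the 4 groups, but at day 14 after PNX it averaged 69.5 CPM per kilobase, below Calcb at 100.8. At day 7 it stood at 77.5, 50.1 and 91.4 CPM after PNX, against 184, 67.2 and 96.7 CPM after sham. At day 14 it stood at 100.2, 105 and 85.0 CPM after PNX, against 143 and 196 CPM after sham.

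The Adm groups overlapped at day 7. At day 14 all PNX libraries were below both sham libraries, as were 8.28% of all tested genes. The log2 fold change was -0.66 ± 0.37 at day 7 (edgeR adjusted p = 0.498) and -0.81 ± 0.41 at day 14 (adjusted p = 0.747). Averaged over the days it was -0.74 ± 0.27 (adjusted p = 0.327). None of these passed. Adm2, which encodes a related peptide also called intermedin and lies on chromosome 15, had 0 to 2 counts in every library and was not above the 95th percentile of background in any of the 11.

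The makeup of the ligand RNA followed from these levels. Per length, Calca and Calcb together made up 15.2, 37.4 and 51.9% of the summed Calca, Calcb, Adm and Adm2 at day 7 after PNX, against 2.27, 3.10 and 12.8% after sham. At day 14 they made up 32.3, 77.5 and 72.9% after PNX, against 5.40 and 3.97% after sham. Adm was the larger share in all 5 sham libraries and the smaller share in 3 of the 6 PNX libraries.

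**Figure D2:**
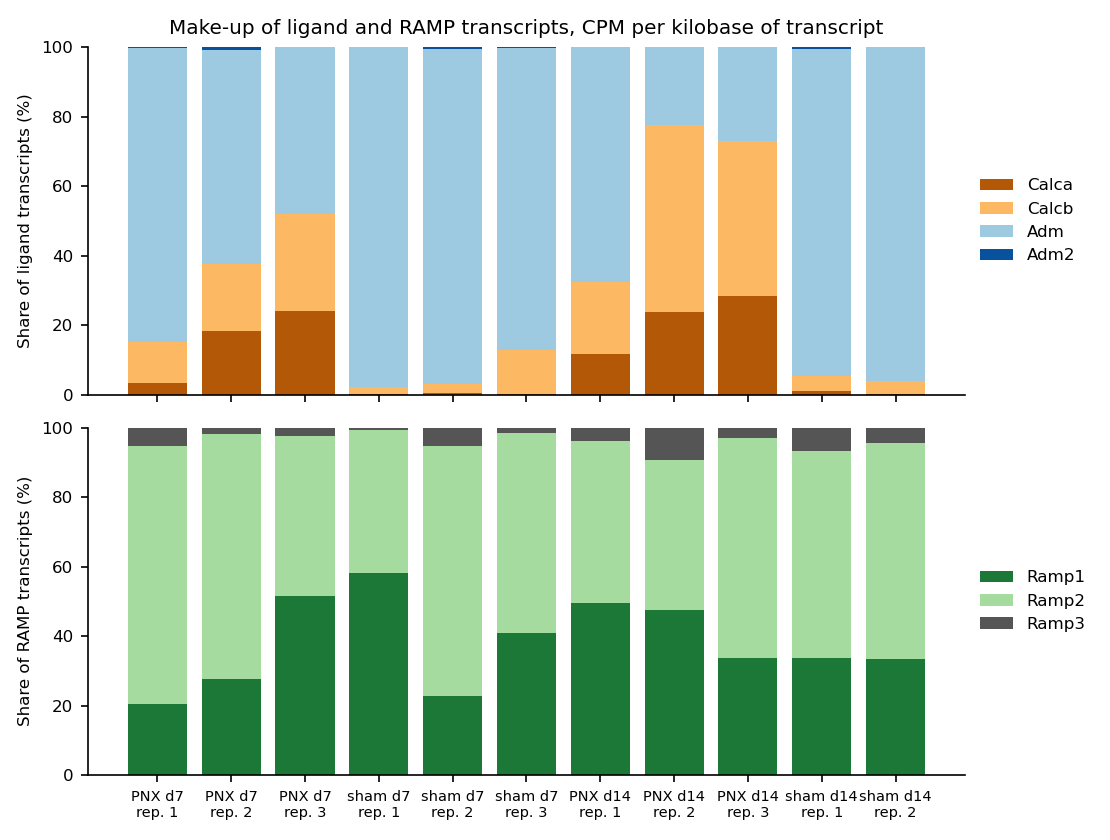
Make-up of the ligand transcripts (upper panel) and of the RAMP transcripts (lower panel) in each library, as stacked bars in percent of the summed CPM per kilobase, with PNX libraries left of sham libraries within each day. Calca and Calcb together take 15.2 to 77.5% of the ligand bar in PNX and 2.27 to 12.8% in sham libraries, while the Ramp shares overlap.

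Calcrl, at chr2:84330626-84425411, encodes the receptor that CGRP and adrenomedullin share. It varied widely among the libraries of 1 group. At day 7 it stood at 437, 128 and 23.4 CPM after PNX, against 42.03, 161 and 38.4 CPM after sham. The day 14 libraries stood at 115, 192 and 378 CPM after PNX, against 137 and 131 CPM after sham. The groups overlapped on both days, and the log2 fold change was 1.29 ± 0.97 at day 7 (edgeR adjusted p = 0.672) and 0.77 ± 1.09 at day 14 (adjusted p = 0.903). Leaving out PNX replicate 1 of day 7, the highest library, turned the day 7 value to -0.16.

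Of all 12607 genes searched, the pattern most like that of Calcrl was Pecam1, the gene of CD31, with a Pearson r of 0.98 across 11 libraries, followed by Myzap and Cd93 at 0.98 each. Pecam1 and Cd93 are endothelial genes, and CD31 was gated against. PNX replicate 1 of day 7 had both the highest Calcrl and the highest Pecam1, at 437 and 247 CPM, and PNX replicate 3 of day 7 had the lowest of both, at 23.4 and 11.1 CPM. In CPM, not corrected for length, Calcrl stood at 1.56 to 2.67 times Pecam1 in PNX libraries. In sham libraries it stood at 1.70 to 3.27 times, and the ranges overlapped. All 14 endothelial markers were counted in every library, with a summed level of 300 to 1682 CPM in PNX and 465 to 1134 CPM in sham libraries. The 6 lymphatic endothelial markers summed to 55.8 to 593 CPM in PNX and 13.5 to 153 CPM in sham libraries. The medians were 181 and 76.9 CPM. Their highest sums, 593 CPM in PNX replicate 1 of day 7 and 396 CPM in PNX replicate 3 of day 14, were in the libraries of highest Calcrl. In these bulk samples more endothelial cells and more RNA per cell cannot be told apart, and their part in the Calcrl values was not tested.

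**Figure D3:**
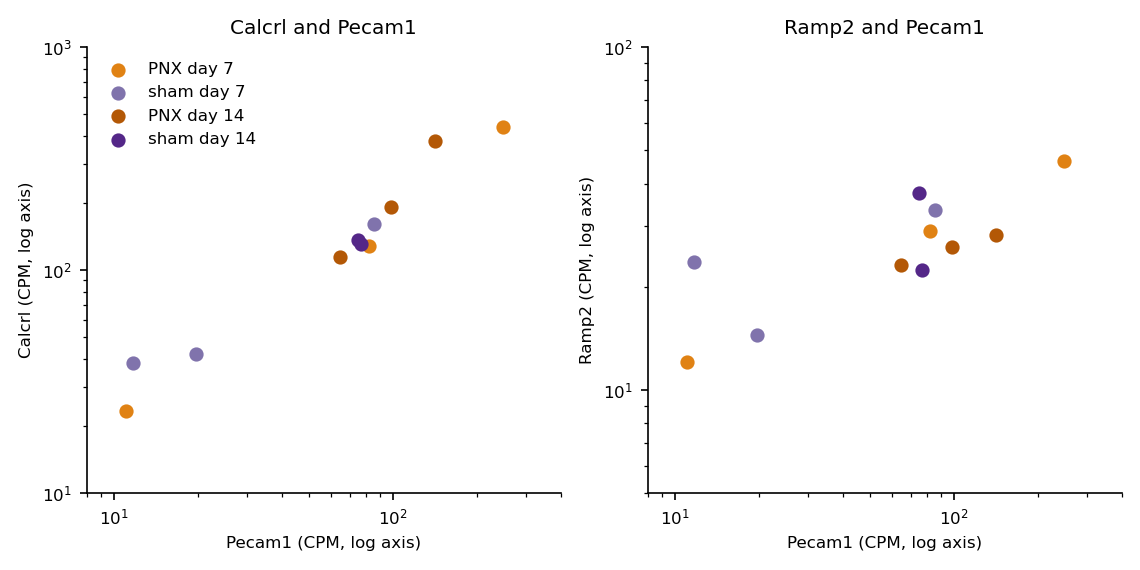
CPM of Calcrl (left) and Ramp2 (right) against CPM of Pecam1, all on log axes, with 1 point per library coloured by surgery and day. Calcrl is higher where Pecam1 is higher over the range of 11.1 to 247 CPM in libraries of both surgeries, and Ramp2 is more scattered.

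Calcr, at chr6:3685680-3764714, encodes the calcitonin receptor, which with a RAMP also binds the peptide amylin. It had 3, 7 and 3 counts at day 7 after PNX, against 1, 11 and 1 after sham. At day 14 it had 2, 0 and 2 counts after PNX, against 8 and 5 after sham. These counts were above the 95th percentile of background in 0 of 6 PNX and 2 of 5 sham libraries, so they are near the level that the background reaches. At day 14 the PNX libraries were below the sham libraries without overlap, as were 8.28% of all tested genes. The count ratio was 0.213 (interval 0.0505 to 0.688, counting error only), with a log2 fold change of -2.49 ± 1.59 (edgeR adjusted p = 0.795). Per length, Calcrl made up at least 97.5% of Calcrl and Calcr together in every library.

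Ramp1, at chr1:91179822-91225196, encodes the partner that makes Calcrl a CGRP receptor. At day 7 it stood at 25.2, 22.4 and 26.6 CPM after PNX, against 40.6, 21.1 and 33.4 CPM after sham. Its day 14 libraries stood at 48.3, 56.8 and 29.7 CPM after PNX, against 41.7 and 23.8 CPM after sham. The groups overlapped on both days, with log2 fold changes of -0.36 ± 0.35 (edgeR adjusted p = 0.742) and 0.47 ± 0.39 (adjusted p = 0.832). The difference of these effects was 0.83 ± 0.52 (adjusted p = 0.639).

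After PNX, all 3 Ramp1 libraries of day 14 were above all 3 of day 7, as were 9.02% of all tested genes, and the log2 change was 0.86 ± 0.35 (adjusted p = 0.724). The genes most like Ramp1 were Pard6b, a cell polarity gene, at a Pearson r of 0.905, then Xpa and Klhl15 at 0.87 each. A list of 3 genes is too short to tell how closely endothelial markers follow Ramp1. The r of Ramp1 with Calcrl was -0.092.

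Ramp2, at chr11:101246028-101259546, encodes the partner that makes Calcrl an adrenomedullin receptor and shares its locus with Vps25 on the same strand, so some reads could belong to either. At day 7 it stood at 46.6, 29.1 and 12.1 CPM after PNX, against 14.5, 33.5 and 23.6 CPM after sham. At day 14 it stood at 23.1, 26.2 and 28.3 CPM after PNX, against 37.6 and 22.4 CPM after sham. The groups overlapped, with log2 fold changes of 0.29 ± 0.43 (edgeR adjusted p = 0.827) and -0.20 ± 0.48 (adjusted p = 0.941), and both signs depended on single libraries. Prkch and Erg, the second an endothelial transcription factor, had the patterns most like it, both at 0.93, and its own r with Calcrl was 0.82.

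Ramp3, at chr11:6658521-6677475, encodes a second adrenomedullin partner. It had 21, 3 and 5 counts at day 7 after PNX, against 2, 12 and 5 after sham, and 11, 38 and 6 at day 14 after PNX, against 13 and 14 after sham. It exceeded the 95th percentile of background in 4 of 6 PNX and 4 of 5 sham libraries. The count ratios were 1.65 at day 7 (interval 0.894 to 3.11), 1.41 at day 14 (interval 0.872 to 2.32) and 1.63 over both days (interval 1.12 to 2.39). These intervals cover counting error only. With the spread between libraries, the log2 fold change was 0.55 ± 0.99 at day 7 (edgeR adjusted p = 0.860). It was 0.09 ± 1.07 at day 14 (adjusted p = 0.990) and 0.32 ± 0.73 in the mean of both days (adjusted p = 0.958). Its nearest patterns were Sln at a Pearson r of 0.93, Grtp1 at 0.88 and Tspan13 at 0.85.

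Per length, Ramp1 made up 20.3 to 51.5% of the 3 Ramp genes in PNX and 22.9 to 58.3% in sham libraries. Ramp2 made up 43.2 to 74.2% in PNX and 41.0 to 71.9% in sham libraries, and Ramp3 1.93 to 9.39% in PNX and 0.760 to 6.63% in sham libraries. All 3 ranges overlapped between the surgeries.

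**Figure D4:**
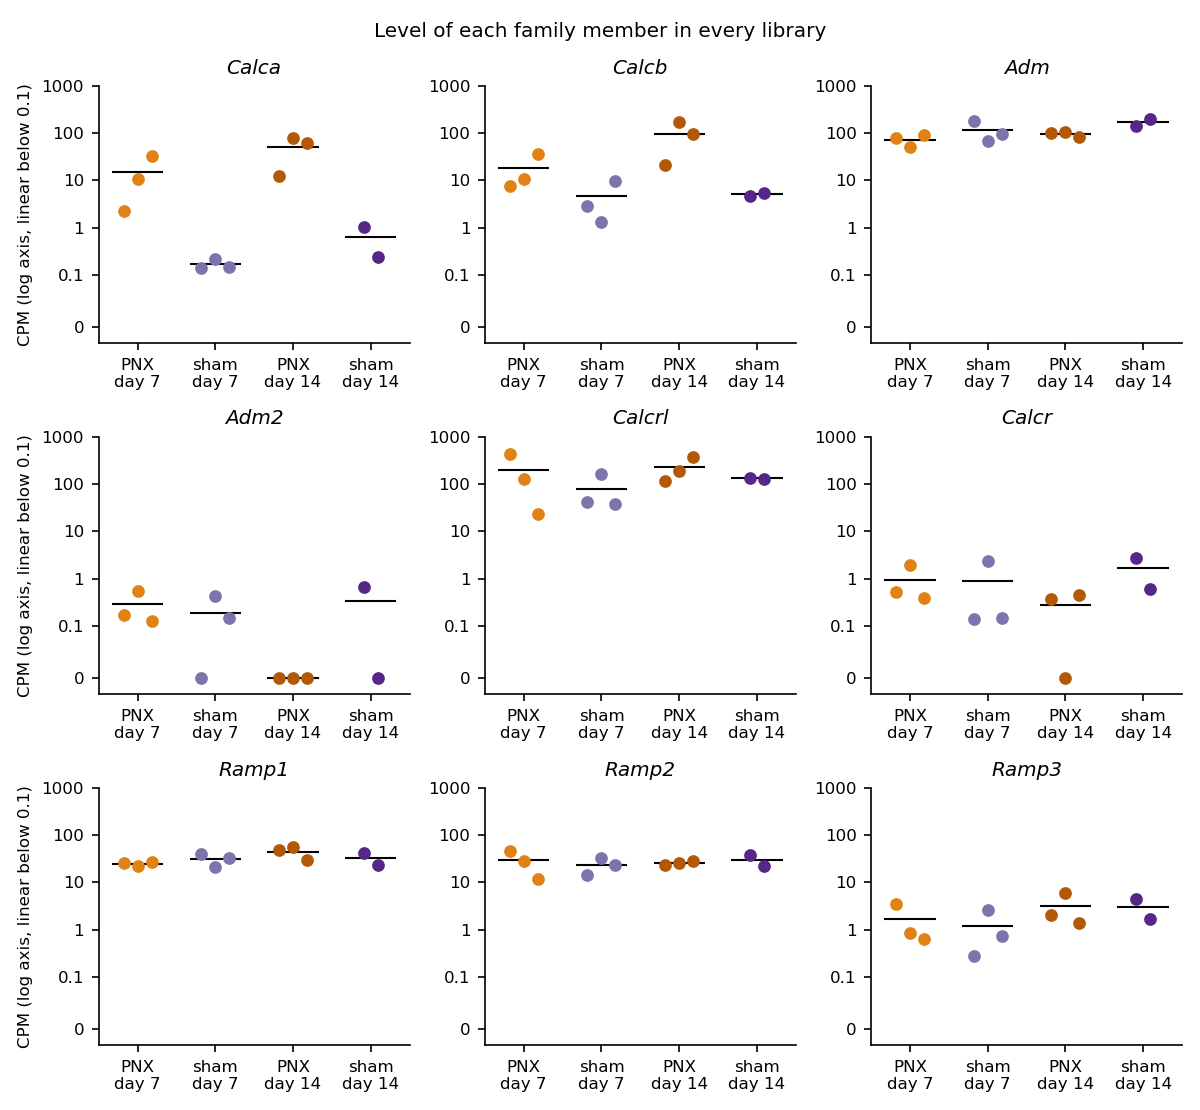
CPM of the 9 family genes on an axis that is logarithmic above 0.1 CPM and linear below it, PNX left of sham within each day; points are libraries and lines are group means. Calca is the gene whose 6 PNX libraries all lie above all 5 sham libraries.

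Over all 11 libraries, Calca was the one family gene of the 8 tested whose PNX and sham libraries did not overlap, where 0.637% of all tested genes were higher without overlap. The family was probably picked from these values, so nothing is read from this for Calca. The order of mean level per length was Adm at 78.2, Calcb at 35.0, Calcrl at 33.2, Ramp2 at 22.9, Calca at 18.4, Ramp1 at 14.4, Ramp3 at 1.77, Calcr at 0.232 and Adm2 at 0.147 CPM per kilobase. Each gene exceeded the next in 9, 4, 7, 8, 4, 11, 11 and 9 of the 11 libraries, in that order. Calcb against Calcrl and Calca against Ramp1 therefore did not hold their order in most libraries. The order moved with surgery: at day 14 after PNX Calcb averaged 100.8 and Calca 51.8 CPM per kilobase, against 5.23 and 0.630 after sham.

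**Figure D5:**
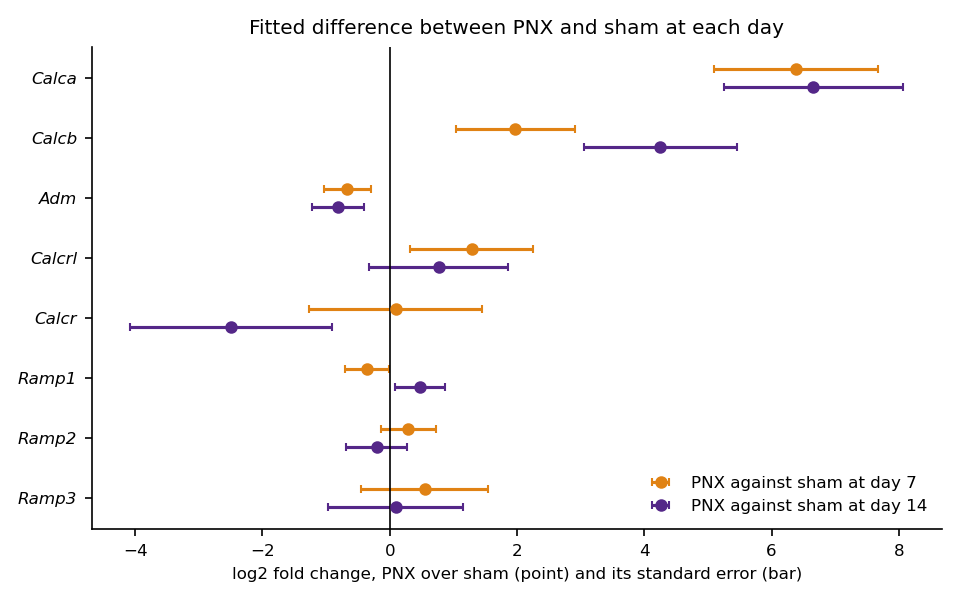
Log2 fold changes of PNX over sham (points) with their SE (bars) from edgeR for the 8 tested family genes, one colour for each day. Calca, at 6.38 and 6.66, has the highest points, followed by Calcb at day 14, at 4.25.

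Markers of cells in which CGRP is known were examined beside Calca. Of 10 neuroendocrine markers, all overlapped between PNX and sham libraries. Their summed level was 57.3 to 125 CPM in PNX and 34.6 to 91.8 CPM in sham libraries, of which Nov alone took 38.9 to 98.1 CPM in PNX and 20.2 to 72.0 CPM in sham libraries. The defining marker Chga, a granule protein, was at 0 to 1.53 CPM in PNX and 0 to 0.336 CPM in sham libraries. That was 0 to 9 counts in PNX and 0 to 1 in sham libraries. The markers differed in direction. Median CPM in PNX and sham libraries was 0.691 and 0.141 for Chga, but 2.09 and 6.09 for Scg3 and 2.09 and 2.56 for Syp. Among the 13 epithelial markers, 12 overlapped. The exception was Krt18, a keratin, at 134 to 337 CPM in PNX and 56.4 to 88.2 CPM in sham libraries. Of all tested genes, 0.637% were likewise higher in PNX without overlap. The part of Krt18 in the Calca difference was not tested.

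The summed epithelial markers of replicates 1, 2 and 3 at day 7 were 2588, 2149 and 965 CPM after PNX, where Calca had 13, 38 and 253 counts, against 1739, 13450 and 215 CPM after sham, where Calca had 1, 1 and 1. At day 14 these sums were 15940, 17990 and 7979 CPM after PNX, where Calca had 66, 501 and 282 counts, against 13620 and 3165 CPM after sham, where Calca had 3 and 2. The library with the highest sum also had the highest Calca count. Among the PNX libraries of day 7, the lowest sum, 965 CPM, went with the highest Calca count, 253. The sums of PNX and sham libraries overlapped on both days. The part of epithelial RNA in the Calca values was not tested. Of the 9 markers of neurons and Schwann cells, all overlapped, and Th, an enzyme of catecholamine synthesis, reached 0.373 CPM in PNX and 0.215 CPM in sham libraries. The genes most like Calca across the 11 libraries were Npl, Cela1, an elastase, and Stk39, a kinase, at 0.95 each. Those most like Calcb were Otub1 at 0.951, Prr13 at 0.9502 and Hacd2 at 0.945, and those most like Adm were Ms4a4d at 0.913, Ddx5 at 0.905 and Gsta3 at 0.903. The group difference itself enters these values.

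The peptide pathway around these genes was read from 6 lists, chosen with earlier results known and described by counts and medians. None of their 73 tested genes passed the edgeR threshold in PNX against sham on either day or averaged over the days. At an unadjusted p under 0.05, 2 were higher and 12 lower in PNX at day 7, 4 higher and 5 lower at day 14, and 3 higher and 9 lower averaged over the days. Over all 16011 tested genes, 746 were higher and 1292 lower at day 7 by this rule. At day 14 these numbers were 510 and 581, and averaged over the days 627 and 1020. All genes together thus also leaned lower, and nothing is read from these counts for the lists. Of 7 tested genes of peptide processing, the enzymes that cut and amidate peptide precursors, the median log2 fold change was -0.11 at day 7 and 0.46 at day 14, against 0.03 and -0.07 over all genes tested. Cpe, a carboxypeptidase that trims peptide ends, had the smallest p of this list at day 14, with 309 ± 149 CPM after PNX (SD, n = 3) against 98.8 ± 5.23 CPM after sham (SD, n = 2), a log2 fold change of 1.65 ± 0.48 (adjusted p = 0.385).

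Of 8 genes of peptide clearance, the median was -0.83 at day 7 and 0.36 at day 14. Mme, which encodes neprilysin, averaged 50.4 ± 10.9 CPM in the 6 PNX libraries and 97.7 ± 53.2 CPM in the 5 sham libraries, a log2 fold change of -0.996 ± 0.291 in the mean of both days (adjusted p = 0.176). Ackr3, a scavenger receptor for adrenomedullin, had log2 fold changes of -1.07 ± 0.43 at day 7 (adjusted p = 0.286) and 1.27 ± 0.49 at day 14 (adjusted p = 0.617). These had opposite signs on the 2 days, and neither passed.

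Of 26 genes that couple these receptors to cyclic AMP, the median was -0.24 at day 7 and 0.15 at day 14. Prkaca, a catalytic subunit of protein kinase A, stood at 25.9 ± 4.51 CPM in PNX and 17.8 ± 1.74 CPM in sham libraries, a log2 fold change of 0.51 ± 0.23 in the mean of both days (adjusted p = 0.435). Prkar1b, a regulatory subunit, went the other way, at 9.01 ± 2.60 CPM in PNX and 16.4 ± 8.92 CPM in sham libraries. Its log2 fold change in the mean of both days was -0.70 ± 0.33 (adjusted p = 0.475). Of 12 genes induced by cyclic AMP, the median was -0.52 at day 7 and -0.28 at day 14. Nr4a1, an early response receptor, averaged 643 ± 185 CPM in PNX and 3252 ± 3080 CPM in sham libraries, with a log2 fold change of -1.78 ± 0.36 (adjusted p = 0.0521). Many stimuli other than cyclic AMP also induce that gene.

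Among the other class B peptide receptors, 6 of 13 were tested, with a median of 0.40 at day 7, where 4 were higher and 2 lower in PNX, and of -1.16 at day 14, where 1 was higher and 5 lower. Vipr2, a receptor for the vasodilator peptide VIP, had the smallest p of this list, with 16.9 ± 4.62 CPM in PNX and 47.3 ± 21.9 CPM in sham libraries and a log2 fold change of -1.47 ± 0.33 in the mean of both days (adjusted p = 0.0734). Of 14 hypoxia-induced genes, a group with which Adm is often listed, the median was 0.15 at day 7 and -0.13 at day 14. Pfkfb3, a regulator of glycolysis, had a log2 fold change of -1.24 ± 0.26 (adjusted p = 0.0635) and Egln3, an oxygen sensor, of 1.52 ± 0.39 (adjusted p = 0.114), both in the mean of both days.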

How the data were processed

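RNA was measured in 11 libraries of lung cells from mice, 3 after PNX and 3 after sham at day 7, and 3 after PNX and 2 after sham at day 14. The deposited values are the authors' read counts per gene, whole numbers that are not normalized. The build mm10 and bcl2fastq 2.20.0.422 come from the submitters' processing notes. The aligner, counter, annotation and strand setting are not given in the sources used here. Kits for RNA from few cells and for low-input libraries were used, per the labels' protocols. Library totals ran from 2539628 to 9008592 counts. Groups were taken from the labels.

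The tests used edgeR 4.0.16 under R 4.3.3. Low genes were dropped by filterByExpr with the groups given, which kept 16011 and removed 8400. Then came TMM factors, robust quasi-likelihood modelling of the 4 groups over the 11 libraries (dispersion square root 0.442, with 7 residual degrees of freedom), and Benjamini-Hochberg adjustment over all genes, with a threshold of 0.05. Adjusted p is from edgeR where no other tool is named. SE is the absolute log2 fold change divided by the square root of F, approximate at few counts. Ratios of summed counts, scaled by TMM library sizes, have exact 95% intervals. Positions and transcript lengths are from GENCODE M21.

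The named genes are the 9 family genes, up to 2 genes of smallest p per list and comparison, of which a part is printed, and the 3 genes of highest Pearson r with each well-counted family gene (log2 CPM, 12607 genes searched). The members and lists were chosen with earlier results of these data known. Other settings were DESeq2 1.42.0, limma 3.58.1 voom with sample weights, RLE or total-count scaling, no filter, fits of only the groups compared, a replicate block, a background covariate, leaving out the 3 libraries of highest background, and leaving out each library.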

Additional observations from a re-analysis of the deposited data

How the results depend on the processing

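The 933 values of 48 folds of family genes changed sign 64 times, in 21 folds, all among the 41 folds that passed the threshold under no setting. Called family genes numbered 0 at day 7, with 1 under the replicate block and DESeq2 and 0 to 1 without single libraries. At day 14 they numbered 0, with 2 in the fit of only the groups compared and with DESeq2 and 0 to 1 without single libraries. In the mean of both days the 1 call became 0 with no filter, with voom and without the 3 high-background libraries named above, 2 with DESeq2, and 0 to 2 without single libraries. Between days after PNX, voom called 2, and 0 were called otherwise. The causes were not tested.

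Genes called over the whole table at day 7 numbered 6, against 12 with total counts, 178 with no filter, 2 with the background covariate, 22 without the 3 libraries, 434 with DESeq2, 826 with voom and 3 to 425 without single libraries. At day 14 they numbered 1, against 2 with RLE, 3 with total counts, 27 with no filter, 52 with only the groups compared, 0 under the replicate block, 35 with the background covariate, 23 without the 3 libraries, 108 with DESeq2, 0 with voom and 0 to 74 without single libraries. In the mean of both days they numbered 31, against 50 with total counts, 102 with no filter, 20 under the replicate block, 77 with the covariate, 98 without the 3 libraries, 295 with DESeq2, 7 with voom and 8 to 192 without single libraries. The interaction had 0, against 1 with total counts and under the block, 8 with no filter, 3 without the 3 libraries, 93 with DESeq2 and 0 to 370 without single libraries. Day 14 against day 7 after PNX had 0, against 8 with no filter, 83 with only the groups compared, 1 under the block, 63 with DESeq2, 111 with voom and 0 to 2 without single libraries. After sham it had 3, against 0 with total counts, only the groups compared and voom, 102 with no filter, 1 under the block and with the covariate, 16 without the 3 libraries, 639 with DESeq2 and 1 to 958 without single libraries.

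Calca at day 7 passed with DESeq2 (adjusted p = 0.000359), and at day 14 with DESeq2 (0.000688) and only the groups compared (0.00583). It also passed at day 7 without PNX replicate 1 of day 7 (0.00449) or of day 14 (0.0416), and at day 14 without PNX replicate 1 (0.0232) or 3 (0.0278) of day 7, and Calcb passed in the mean of both days without PNX replicate 1 of day 14 (0.0337). Without single libraries the log2 fold change of Calca was 5.02 to 6.86 at day 7, 5.80 to 7.596 at day 14 and 5.86 to 6.99 in the mean of both days. The Calca interaction turned to -0.11 with total counts, -0.36 with the covariate and -0.053 with DESeq2, and ran from -0.55 to 1.67 without single libraries. The day 7 value of Calcrl ran from -0.16 to 2.24 and that of Ramp2 from -0.29 to 0.63, and Ramp2 at day 14 ran from -0.39 to 0.20, with 0.23 without the 3 libraries. With total counts, the mean of Calcrl in sham at day 14 was 139.8 CPM and that of Ramp1 in PNX at day 7 was 27.3 CPM.

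Whether the replicate numbers pair the libraries is not known, since no label ties them or says that they are separate. Same-numbered PNX and sham libraries had correlations of their deviations of -0.116, 0.532 and 0.339 at day 7. At day 14 these correlations were 0.0995 and 0.183. With so few libraries in a group, such values can neither show nor exclude pairing. With the replicate block, Calca at day 7 was 6.04 (adjusted p = 0.0141). Depth limits Calca in sham libraries, Calcr and Adm2 most, where a library held 0 to 11 counts.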
